A study of Mus musculus with 22 samples.

Results

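The Meis, Pbx and Pknox genes analysed here encode TALE homeodomain proteins, which bind DNA together with Hox proteins. The genes were taken by name, Meis1, Meis2, Meis3, Pbx2, Pbx3, Pbx4, Pknox1 and Pknox2, which are 8 of the 21938 protein-coding genes of the annotation. H3K27ac, the acetylation of lysine 27 on histone H3 that is found at active enhancers and promoters, was read from peak lists, and a peak was counted at a gene when it overlapped the gene or the 10 kb on either side. Peaks lying 2.5 kb or less from a transcription start site (TSS) annotated for the gene were called TSS peaks, other peaks inside the gene intragenic peaks, and the remainder flank peaks. The 8 genes held 29 of the 23410 peaks of replicate 1, 19 of the 25963 of replicate 2 and 24 of the 23758 of replicate 3.

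The 3 ChIP-seq libraries came from KL cells, the cKit+Sca1-Lin- myeloid progenitors of the bone marrow, sorted from male BcorΔE9-10 mice 20 weeks after tamoxifen. These mice carried floxed Bcor, an X-linked gene of the Polycomb complex PRC1.1, and HSC-SCL-Cre-ERT, a tamoxifen-activated Cre driven by a stem cell element of Tal1, so that exons 9 and 10 were lost in haematopoietic stem cells and a truncated protein at low level remained in their progeny. The mice were 3 to 6 months old when they received tamoxifen, 1 mg daily over 5 days. The other 19 of the 22 samples, among them all BcorWT samples, were not analysed here, so every value below describes BcorΔE9-10 cells and no comparison between genotypes was made.

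MEIS and PKNOX (also called PREP) proteins form dimers with PBX proteins, and these dimers join Hox proteins on composite DNA sites. The nuclear localisation of PBX proteins depends in part on MEIS or PKNOX partners. In haematopoiesis MEIS1 maintains stem cells and cooperates with HOXA9 in leukaemia, and its levels fall as myeloid cells mature.

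The H3K27ac at these genes fell into 3 patterns. Meis1 and Pbx2 carried several low peaks spread over a long stretch, Pbx3 and Pbx4 carried 1 low and short peak each, and Pknox1 carried a pair of high peaks on either side of its 5′ end. Every region counted at Pbx2 also lay within 2.5 kb of a start of another protein-coding gene. Meis2, Meis3 and Pknox2 held no peak in any library. In bulk chromatin, weaker acetylation in every cell and acetylation in a smaller share of the cells cannot be told apart.

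The reference sequence (RefSeq, GRCm38) is given here for TSS regions of the marked genes found in all 3 libraries, in lower case and along the direction of transcription, 100 bases either side of the summit. Capitals mark TGACAG, the core bound by MEIS and PKNOX proteins, and TGATTNAT, a site of PBX-Hox dimers, on either strand. The window of the strongest TSS region at Pbx2 and that at the Meis1 5′ end lie in annotated untranslated sequence and are not printed, so for Pbx2 the summit just before its principal transcript is given.
Meis1 intron 2 (chr11:19014760-19014960, minus strand): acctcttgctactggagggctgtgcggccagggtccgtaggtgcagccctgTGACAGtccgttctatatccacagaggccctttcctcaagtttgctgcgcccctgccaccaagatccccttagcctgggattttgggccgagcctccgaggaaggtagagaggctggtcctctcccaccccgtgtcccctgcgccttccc
Pbx2 upstream of the principal transcript (chr17:34591947-34592147, plus strand): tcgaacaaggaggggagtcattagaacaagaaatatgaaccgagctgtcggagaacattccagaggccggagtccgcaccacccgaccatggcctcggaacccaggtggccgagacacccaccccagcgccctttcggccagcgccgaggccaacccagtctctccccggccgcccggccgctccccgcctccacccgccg
Pbx3 upstream of the principal transcript (chr2:34372259-34372459, minus strand): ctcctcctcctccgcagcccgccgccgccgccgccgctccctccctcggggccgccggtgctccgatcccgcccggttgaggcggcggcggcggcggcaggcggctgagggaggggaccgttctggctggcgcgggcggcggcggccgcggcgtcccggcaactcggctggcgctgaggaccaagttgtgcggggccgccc
Pbx4 exon 1 and intron 1 (chr8:69832734-69832934, plus strand): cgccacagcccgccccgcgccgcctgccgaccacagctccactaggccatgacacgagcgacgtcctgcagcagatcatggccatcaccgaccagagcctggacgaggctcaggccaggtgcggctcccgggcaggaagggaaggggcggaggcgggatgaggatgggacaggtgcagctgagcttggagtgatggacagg
Pknox1 intron 1 (chr17:31565179-31565379, plus strand): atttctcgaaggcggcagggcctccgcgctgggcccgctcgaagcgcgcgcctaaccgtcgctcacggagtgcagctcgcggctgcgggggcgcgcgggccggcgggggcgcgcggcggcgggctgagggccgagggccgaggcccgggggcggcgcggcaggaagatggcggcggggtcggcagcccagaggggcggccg
Of these 5 windows, only that in Meis1 intron 2 holds TGACAG and none holds TGATTNAT. Among the Pbx2 TSS windows not printed, that of the strongest region, at -1.3 kb from the 5′ end, and that at 0.19 kb also hold TGACAG. Over the 34 regions at the 8 genes, 4 windows (11.8%) hold TGACAG on either strand, against 14.1% of the 34593 windows of 201 bases over all peak regions, and 1 (2.94%) holds TGATTNAT, against 1.14%. The summit in Pknox1 intron 1 had a GC content of 81.6% and a ratio of observed to expected CpG of 1.12, higher than or equal to that of 98.6% of all regions. The Pbx3 summit came to 0.99 and the Pbx4 summit to 0.64, against a median of 0.35 over all regions and 0.71 over regions with a peak in all 3 libraries. The 3 Meis1 regions found in all 3 libraries came to 0.56, 0.41 and 0.35, and the 5 regions in intron 7 of Meis1, each found in 1 library, lay between 0.11 and 0.50.

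For the MEIS genes, the sequence before a start annotated in RefSeq is shown to set the unmarked genes beside Meis1 (RefSeq promoter table, GRCm38.p6). Each stretch is the longest run outside annotated untranslated exons within the 250 bases before the start. For Meis2 that start is internal, since the stretch begins in the end of exon 1 of the principal transcript (0.792 to 1.037 kb). The Meis2 sequence and values therefore do not describe its 5′ end.
Meis1 before the start (chr11:19018986-19019219, minus strand): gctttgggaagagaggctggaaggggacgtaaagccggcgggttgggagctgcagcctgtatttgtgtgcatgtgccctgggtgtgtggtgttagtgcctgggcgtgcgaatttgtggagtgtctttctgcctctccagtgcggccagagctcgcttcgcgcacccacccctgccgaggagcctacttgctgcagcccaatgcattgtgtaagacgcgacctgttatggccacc
Meis2 before the start (chr2:116064722-116064813, minus strand): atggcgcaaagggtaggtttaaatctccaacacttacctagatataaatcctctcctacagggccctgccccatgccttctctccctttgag
Meis3 before the start (chr7:16175185-16175274, plus strand): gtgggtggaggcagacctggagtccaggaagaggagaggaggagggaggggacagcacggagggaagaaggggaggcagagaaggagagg
The table held 5 of the 8 genes (Meis1, Meis2, Meis3, Pbx2 and Pbx4). Over its 300-base promoters the ratio of observed to expected CpG was 0.59 for Meis1, 0.67 for Meis2 and 0.69 for Meis3, against a median of 0.59 over 20145 promoters of protein-coding genes. The number of CpGs was 15, 13 and 21, and the GC content 58.3%, 51.0% and 66.7%. The window at the internal Meis2 start was thus lower than that of Meis1 in number of CpGs and GC content, but higher in the ratio. That of Meis3 was higher than that of Meis1 by each of these measures. None of the 5 promoters holds TGACAG or TGATTNAT on either strand, which are found in 18.3% and 2.65% of all promoters.

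Depth recovered from the peak lists was 18.0, 18.9 and 19.3 M reads in replicates 1, 2 and 3, and the fewest fragments at any called summit were 8, 8 and 9. Fold enrichment, the unit used below, is the peak caller's ratio of the fragments at a summit to the local background of the same library, with 1 added to both. The 3 libraries are numbered replicates, and the study's methods give 3 BcorΔE9-10 mice for ChIP-seq. All 5 genes of KL cells examined (Kit, Gata2, Myb, Spi1 and Cebpa) had a TSS peak in every library, against 43.9% of all protein-coding genes. Of 4 genes removed by the gate or found in mature lineages (Ly6a, Cd5, Itgam and Ly6g), Cd5, a surface protein of lymphocytes, had a TSS peak in at least 2 libraries, at a fold enrichment of 5.01 ± 0.901 (SD, n = 3). The Cd5 level is close to those of the lower TALE genes, and the part of other cell types in them was not tested.

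A TSS peak in at least 2 libraries was found at 5 of the 8 genes, against 46.9% of all protein-coding genes. All 5 had it in all 3 libraries, against 43.9%. The other 3 genes had no TSS peak in any library, against 50.1% of genes, and no peak of any kind, against 41.5%. The peaks of the 3 libraries merged into 34 regions at the marked genes, of which 14 were found in all 3 libraries, 7 in 2 and 13 in 1. Over all 34595 regions, 41.3% were found in all 3 libraries, 15.2% in 2 and 43.5% in 1. With 8 genes chosen by name, these counts are read as a description.

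**Figure D1:**
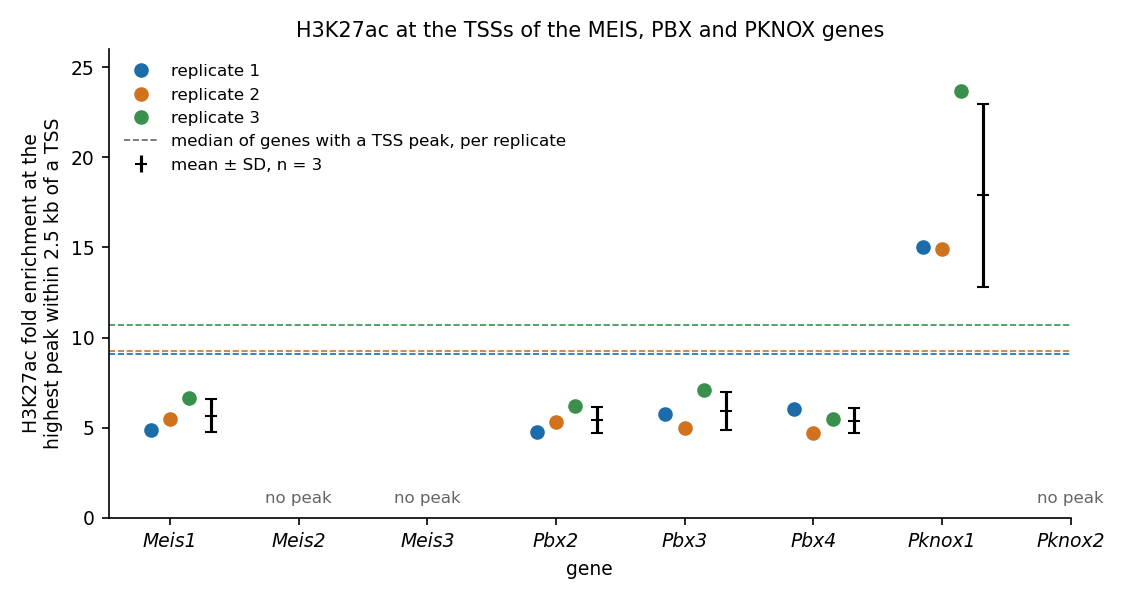
H3K27ac fold enrichment at the highest TSS peak (vertical axis) of each of the 8 genes, with 1 point per replicate, the mean ± SD (n = 3) in black and the median over genes with a TSS peak as a dashed line per replicate. Pknox1 lies above the medians in all 3 replicates, the other 4 marked genes lie between 4.71 and 7.07 below them, and 3 genes have no peak.

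Among the MEIS genes, only Meis1 was marked. Meis1 (ENSMUSG00000020160.18, chr11:18879817-19018985, minus strand, 139 kb, GRCm38) held 15 peaks in replicate 1, 6 in replicate 2 and 10 in replicate 3. The highest TSS peak had a fold enrichment of 4.87, 5.50 and 6.65, a mean of 5.67 ± 0.905 (SD, n = 3). Among genes with a TSS peak these values lay at percentiles 14.8, 19.7 and 22, below the medians of 9.07, 9.26 and 10.7 in every library. They are not the level at the 5′ end. The highest peak lay in the region at 3.26 kb in replicates 1 and 3 and in that at 4.12 kb in replicate 2. The region over exon 1 had a mean of 5.2.

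The peaks of Meis1 merged into 19 regions, of which 3 were found in all 3 libraries, 4 in 2 and 12 in 1. All 3 shared regions lay in the first 6 kb of the gene. The region over exon 1, with its summit 0.18 kb downstream of the outermost 5′ end, had fold enrichments of 4.59, 4.60 and 6.40, from 15, 22 and 21 fragments. The region in intron 2, at 4.12 kb, had 4.66, 5.50 and 6.39, from 17, 21 and 25 fragments. The region in intron 4, at 5.49 kb, was the lowest of the 3, with 3.41, 2.60 and 4.88. The interior regions count as TSS regions because Meis1 has 7 annotated starts, and the antisense gene Gm16141 also starts within 2.5 kb of the intron 2 and intron 4 regions, so the mark there cannot be given to 1 strand.

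Between these regions, peaks at 2.43 kb (4.56 and 4.30) and at 3.26 kb (4.87 and 6.65) were found in replicates 1 and 3 and not in replicate 2. Replicate 2 therefore showed the same block with fewer peaks. The length covered by peaks at Meis1 was 5454, 2387 and 4652 bp, and replicate 2, with the most peaks in the genome, had the shortest. Among genes with any peak, the covered length stood at percentiles 98.6, 81.6 and 96.4.

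Since covered length can grow with the size of a gene and its number of starts, it was also measured in 5 kb either side of the outermost 5′ end of every gene, a choice made after the values were seen. Meis1 then had 2544, 1793 and 2739 bp covered, at percentiles 97.5, 87.5 and 96.9 of the genes with a peak there, whose medians were 882, 941 and 970 bp. Peaks at the 5′ part of Meis1 were thus low in height and long in sum in each of the 3 libraries.

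**Figure D2:**
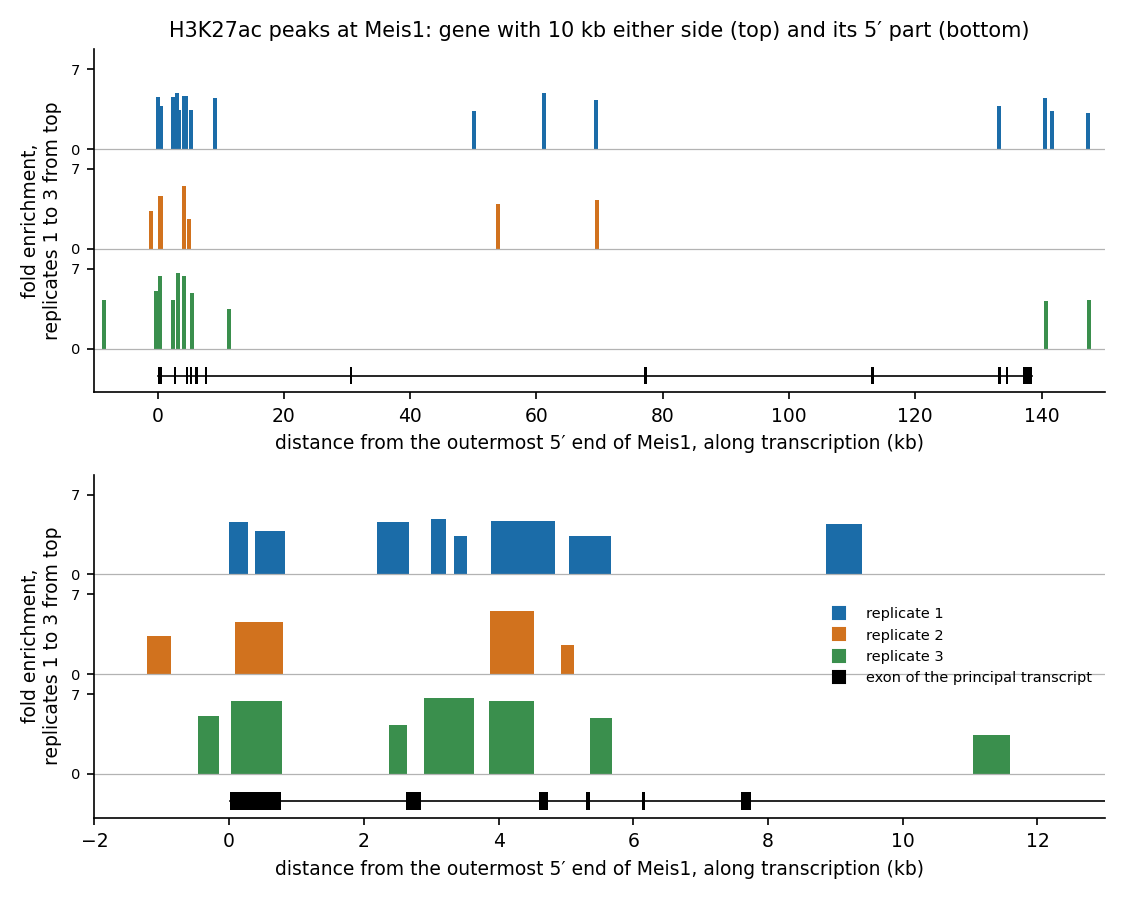
H3K27ac peaks at Meis1 as bars of their width and fold enrichment (vertical axis, 0 to 7 in each of 3 tracks) against distance from the outermost 5′ end in kb, with exons of the principal transcript in black below. The upper panel draws narrow peaks at a minimum width. The peaks shared by the 3 replicates lie in the first 6 kb, and those further inside the gene differ between replicates.

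Away from the starts, Meis1 held 4, 2 and 1 intragenic peaks, and so counted among the 2 of 8 genes with an intragenic peak in at least 2 libraries, against 9.94% of all genes. None of its 7 intragenic regions was found in more than 1 library. Of them, 5 lay in intron 7, between 50.15 and 69.64 kb from the 5′ end, with fold enrichments of 3.35 to 4.92 from 10 to 18 fragments. The peaks at 69.39 kb in replicate 1 (4.26) and at 69.64 kb in replicate 2 (4.29) lay next to each other without overlapping. The density was 0.287, 0.144 and 0.0719 intragenic peaks per 10 kb of gene, against 0.0608, 0.0732 and 0.0576 over all genes, and the value of replicate 3 was close to that of all genes. The highest TSS peak exceeded the highest intragenic peak by 0.43 ± 0.49 on the log2 scale (SD, n = 3). It was higher in 2 of 3 libraries (two-sided exact sign-flip permutation test, p = 0.5, where 3 libraries cannot give less than 0.25). These maxima came from 8, 4 and 6 TSS peaks and 4, 2 and 1 intragenic peaks. The sign also depends on which starts are used. The highest TSS peaks lay in intron 2, and they count as intragenic with protein-coding starts only or the outermost 5′ end only. The peak over exon 1, with 4.59, 4.60 and 6.40, was lower than they were (4.87, 5.50 and 6.65) in each library. The difference was not tested under those definitions.

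Beyond the 3′ end, 2 regions at 140.57 kb and 147.58 kb from the 5′ end were found in replicates 1 and 3, with fold enrichments of 4.44 and 4.20 for the first and 3.12 and 4.23 for the second. The second lies within 2.5 kb of the start of 8430419K02Rik, a neighbouring transcript. These flank regions were therefore seen in more libraries than any region inside the gene beyond its 5′ part.

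By the highest TSS fold enrichment and the number of intragenic peaks in each library, the 3 genes closest to Meis1 among 9637 with a TSS peak in all libraries were Abcb9, Ttc28 and Tnik, at Euclidean distances of 0.48, 0.48 and 0.55 on the log2 scale over 6 values. Abcb9, which encodes a lysosomal peptide transporter, had TSS fold enrichments of 4.78, 4.47 and 5.85 with 3, 2 and 1 intragenic peaks.

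Meis2 and Meis3, the other MEIS genes, held no peak. The nearest peak to Meis2 (ENSMUSG00000027210.20, chr2:115863064-116065839, minus strand) lay 281 kb away in each library, and the nearest to Meis3 (ENSMUSG00000041420.18, chr7:16175090-16186504, plus strand) 35.1, 35.1 and 35.2 kb away. Acetylation giving fewer fragments than the called summits would not be listed, so absence of a peak sets an upper limit and not a level of 0.

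All 3 PBX genes had TSS peaks in every library, at similar heights. Pbx3 (ENSMUSG00000038718.15, chr2:34171457-34373142, minus strand, 202 kb), a partner of HOXA9 and MEIS1 in leukaemia, held a single region at chr2:34372122-34372697. Its fold enrichment was 5.77, 5.00 and 7.07, a mean of 5.95 ± 1.05 (SD, n = 3), from 16, 17 and 21 fragments. The summit lay 0.78 kb downstream of the outermost 5′ end, and the region ended before the first exon of the principal transcript, which starts at 1.098 kb. No other peak was found in the remaining length of the gene or its flanks, so 1 peak of 271, 533 and 519 bp was all that was listed over 202 kb.

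Pbx4 (ENSMUSG00000031860.17, chr8:69832491-69872292, plus strand), a PBX gene best known from the testis, likewise held 1 region, at chr8:69832599-69833227, over exon 1 and the start of intron 1. The fold enrichment was 6.04, 4.71 and 5.46, a mean of 5.40 ± 0.667 (SD, n = 3), from 20, 15 and 19 fragments. Replicate 1 was the highest for Pbx4, whereas replicate 3 was the highest for Meis1, Pbx2, Pbx3 and Pknox1, as it was for the median over all genes with a TSS peak (10.7). The peak covered 524, 375 and 519 bp.

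Pbx2 (ENSMUSG00000034673.14, chr17:34591266-34597400, plus strand, 6.13 kb), a PBX gene of broad expression, held 9 regions, 7 of them in all 3 libraries and 2 in replicates 1 and 3. The highest TSS peak had a fold enrichment of 4.78, 5.29 and 6.18, a mean of 5.42 ± 0.708 (SD, n = 3). That peak was not the same one in each library, since its summit lay at -1.39 kb from the 5′ end in replicate 1, at -1.3 kb in replicate 3 and at 1.27 kb in replicate 2. The region over exon 1 of the principal transcript, at 1.27 kb, had fold enrichments of 4.15, 5.29 and 4.67.

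The gene lies among close neighbours, and each of its 9 regions was within 2.5 kb of a start of another protein-coding gene. All 4 TSS regions were also at Gpsm3, a modulator of G protein signalling. The flank region with the highest mean, at 13.34 kb from the 5′ end (5.84, 7.75 and 7.99), and the one at 14.76 kb (6.27, 7.0 and 6.83), which was higher in replicate 1, were at Rnf5, which encodes a ubiquitin ligase, and Agpat1, which encodes an acyltransferase of phospholipid synthesis. Pbx2 held no intragenic peak. Within 5 kb of its 5′ end, 1918, 2448 and 2225 bp were covered, at percentiles 92.1, 96.4 and 93.1, and the share that belongs to Pbx2 and not to its neighbours cannot be told apart.

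**Figure D3:**
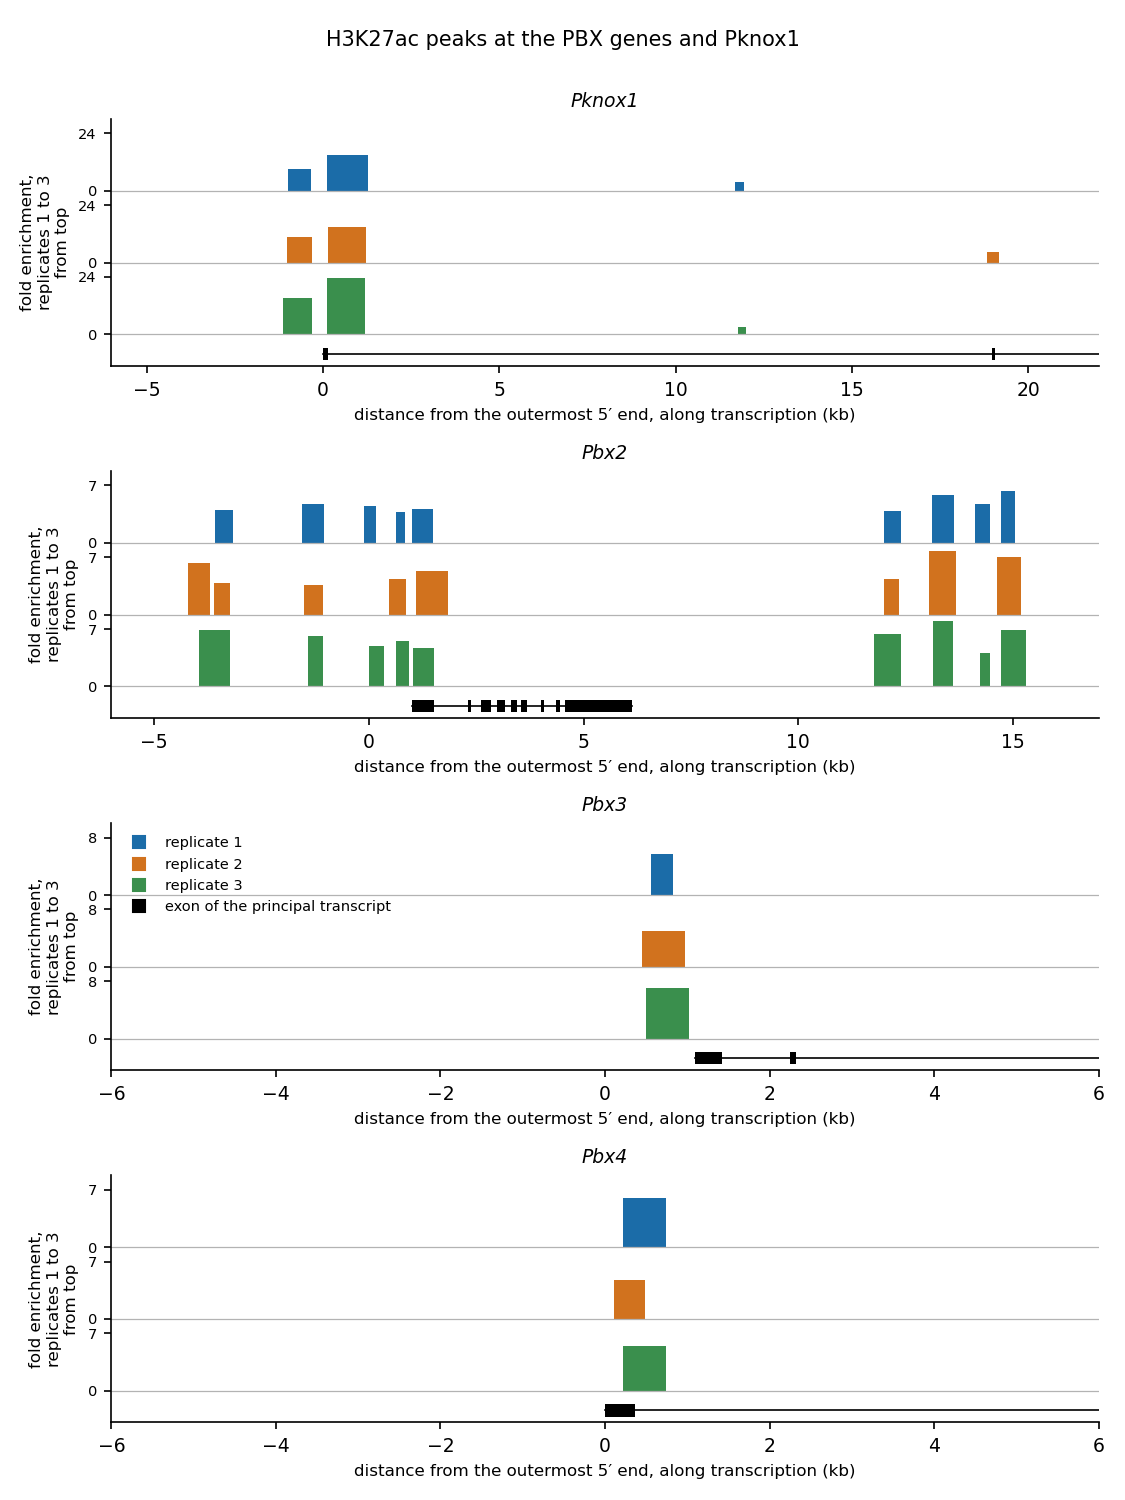
H3K27ac peaks at Pknox1, Pbx2, Pbx3 and Pbx4 as bars of their width and fold enrichment (vertical axis, 3 tracks per gene with their own maximum) against distance from the outermost 5′ end in kb. The blue, orange and green tracks are replicates 1, 2 and 3 and black boxes are exons of the principal transcript. Pknox1 has high peaks on both sides of its 5′ end, Pbx2 has a row of low ones that also lie at its neighbours, and Pbx3 and Pbx4 have 1 peak each.

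Pknox1 had the highest H3K27ac of the 8 genes. Pknox1 (ENSMUSG00000006705.13, chr17:31564734-31607693, plus strand, 43.0 kb) encodes PREP1, a broadly expressed partner of PBX proteins. The region in intron 1, chr17:31564842-31566015, had fold enrichments of 15, 14.9 and 23.7, a mean of 17.9 ± 5.07 (SD, n = 3). These came from 43 fragments (95% Poisson interval 31.1 to 57.9), 44 (32 to 59.1) and 72 (56.3 to 90.7), where the intervals cover counting error only. Replicate 3 was therefore the highest, and its interval overlapped the other 2 only at the edge. The values lay at percentiles 78.9, 79.4 and 92.9 of genes with a TSS peak, and Pknox1 was the 1 gene of the 8 above the median in all 3 libraries.

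A second region, chr17:31563593-31564428, lay upstream, with its summit at -0.45 kb from the 5′ end. Its fold enrichments were 9.22, 10.6 and 15.3, from 26, 31 and 46 fragments, so it was lower than the intron 1 region in each library and also highest in replicate 3. Noncoding genes (AC166172.2, AC166172.4 and Gm24970) start near both regions. Deeper in intron 1, at 11.82 kb, replicates 1 and 3 had a small intragenic peak (3.76 and 3.26, from 10 and 9 fragments). Replicate 2 had 1 peak at 19.07 kb (4.30), near an internal start.

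Pknox1 was also the only gene of the 8 assigned a super-enhancer in at least 2 libraries, against 8.26% of all genes. Super-enhancers were regions stitched from neighbouring peaks, ranked by fold enrichment times length and taken past the point of slope 1. The Pknox1 stitched region ranked 1151 of 11779 in replicate 1 and 729 of 11525 in replicate 3, past that point, and 1322 of 12327 in replicate 2, short of it. In replicates 1 and 3 it joined the 2 peaks at the 5′ end to the small peak at 11.82 kb and spanned 12.9 and 13.2 kb. The call did not hold without replicate 1 or without replicate 3 (0 genes each). Nor did it hold with stitching within 20 kb, a stricter peak threshold or peaks near a TSS left out (0 genes each). In all, 1383, 1083 and 1190 stitched regions were called super-enhancers in replicates 1, 2 and 3. The study ranked enhancers by tag count with the Homer software and reported far fewer in at least 2 samples. The calls here are thus not those of the study. The best-ranked stretch at Meis1 ranked 2327 of 11779, 4582 of 12327 and 2037 of 11525.

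Pknox2 (ENSMUSG00000035934.16, chr9:36890982-37147407, minus strand, 256 kb), which encodes PREP2, held no peak, and the nearest lay 60.9, 61 and 60.4 kb away. Each of the MEIS and PKNOX groups thus had 1 marked gene.

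In order of mean TSS fold enrichment, the 5 marked genes were Pknox1, Pbx3, Meis1, Pbx2 and Pbx4. Pknox1 exceeded Pbx3 by 1.57 ± 0.18 on the log2 scale (SD, n = 3), a ratio of 2.96, in 3 of 3 libraries (two-sided exact sign-flip permutation test, p = 0.25, adjusted p = 0.5 over 4 pairs). This is the smallest p that 3 libraries allow, and the 2 genes did not overlap. The ranges of the other neighbours over the libraries overlapped. Pbx3 and Meis1 differed by 0.07 ± 0.19 (SD, n = 3; exact permutation p = 0.75), Meis1 and Pbx2 by 0.06 ± 0.04 (higher in Meis1 in 3 of 3 libraries, n = 3; exact permutation p = 0.25), and Pbx2 and Pbx4 by 0.00 ± 0.29 (n = 3; exact permutation p = 1.0). The position of Pbx3 above Meis1 turned to -0.02 without replicate 1. By the means, Meis1 fell below Pbx2 with protein-coding starts only or the outermost 5′ end only (5.2 and 5.42). It also did so with a TSS window of 5 kb (5.67 and 5.97). Meis1 stayed above Pbx2 with a window of 1 kb (5.37 and 5.09) and with a −log10 q of at least 5 (5.67 and 5.42).

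**Figure D4:**
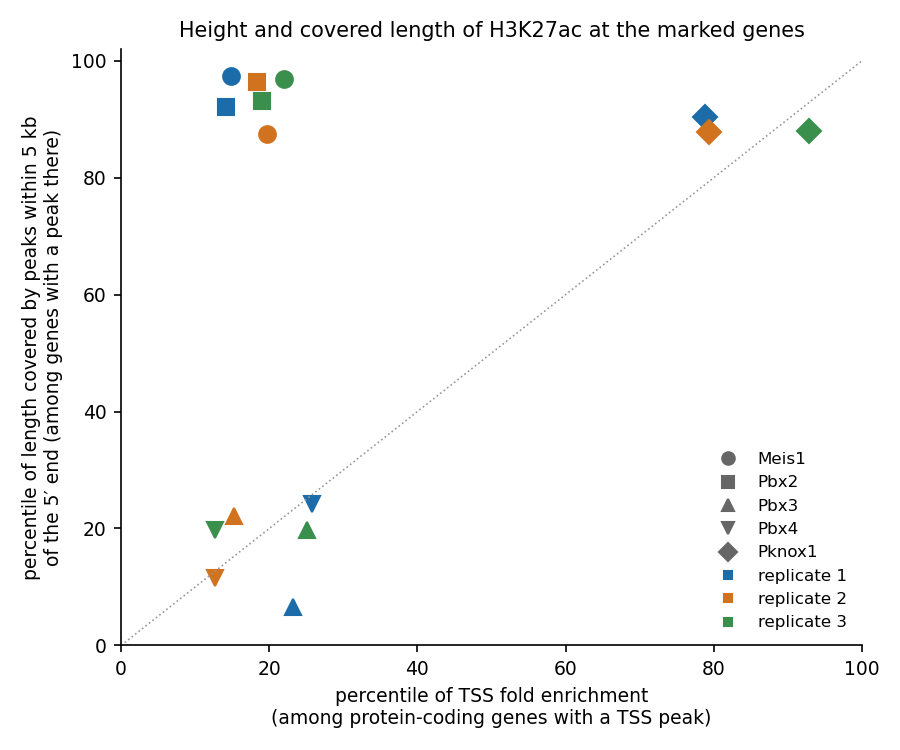
Percentile of the TSS fold enrichment (horizontal axis) against the percentile of the length covered by peaks within 5 kb of the 5′ end (vertical axis) for the 5 marked genes, with symbols for genes, colours for replicates and equal percentiles as a dotted line. Meis1 and Pbx2 sit at the upper left in all 3 replicates (low and long), Pbx3 and Pbx4 at the lower left (low and short) and Pknox1 at the upper right (high and long). The peaks counted at Pbx2 also lie near starts of its neighbours.

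Height and covered length together separated the marked genes. At Pbx3 the length covered within 5 kb of the 5′ end stood at percentiles 6.56, 22.2 and 19.7, and at Pbx4 at 24.2, 11.6 and 19.7. At Pknox1 it stood at 90.4, 87.8 and 88.0, with 1823, 1803 and 1916 bp. Covered length in the 5′ part was greater at Meis1 than at Pknox1 in replicates 1 and 3 and nearly equal in replicate 2, while the highest fold enrichments of Pknox1 were above those of Meis1 in every library.

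Other genes of the TALE class, and genes that TALE proteins work with, were counted in the same way from lists chosen with earlier results known. Of 9 other TALE genes (Irx1 to Irx6, Tgif1, Tgif2 and Mkx), 2 had a TSS peak in at least 2 libraries, against 46.9% of all genes, the share to set beside each of these lists. They were the repressor genes Tgif1 (18.2, 17.8 and 19.3) and Tgif2 (14.9, 10.3 and 14.7), both above the median over genes in every library, as was Pknox1. Of 11 Hoxa genes, whose proteins bind DNA with TALE partners, 4 had such a peak, with means of 9.76 for Hoxa3, 8.78 for Hoxa7, 6.58 for Hoxa9 and 5.42 for Hoxa4. Hoxa9, the partner of Meis1 in leukaemia, had 7.09, 5.95 and 6.70, a range that overlapped that of Meis1. Within each library Hoxa9 was above Meis1 (4.87, 5.50 and 6.65), by little in replicate 3, and this difference was not tested. Of 8 genes described as targets of HOXA9 and MEIS1 (Flt3, Trib2, Ccnd3, Hif1a, Epas1, Myb, Erg and Msi2), 6 had one, with the highest means at Msi2 (20.5 ± 0.917), Hif1a (13.7 ± 3.72), Erg (10.7 ± 2.29) and Flt3 (10.5 ± 1.28) (SD, n = 3).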

How the data were processed

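Peak lists of 3 BcorΔE9-10 H3K27ac libraries (KL cells) were analysed. Per the study's methods and the submitters' processing notes, the authors aligned reads to GRCm38 with Bowtie2 and called peaks in each library with MACS2 2.1.1, without pooling. The lists deposited by the authors give, for each summit, a fold enrichment (a ratio to local background within the library), the −log10 of a p-value and of a q-value, and a score, which was not used. Values are not scaled between libraries. The largest q was 0.0499. The control used in peak calling was not given in the sources used here.

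Rows sharing an interval were joined into 1 peak, which took the largest fold enrichment among them. Gene models were GENCODE M21, and all peaks lay within the GRCm38 chromosomes, reaching at most 99.9% of the length. Fragments and depth were recovered by solving fold enrichment and p-value together for whole fragments (100% of rows solved, fragments of 200 bp), and fragment intervals are exact Poisson. Overlaps of 1 bp merged peaks into regions. Differences were tested with exact sign-flip permutation tests over the 3 libraries, adjusted by Benjamini-Hochberg. The scripts (Python 3.11.15, scipy 1.17.1) were tested on simulated data.

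The 8 genes and all lists were chosen with earlier results of these data known. All 8 genes are named. A result on 1 marker gene is not reported here. Other genes are named as neighbours with a start within 2.5 kb of a counted peak, as the 4 highest of each list, as markers of KL or other cells, or as the 3 genes nearest to the gene with the longest covered length. Alternatives were a stricter q, other TSS definitions and flanks, other stitching, a reciprocal overlap, the −log10 p in place of fold enrichment, and leaving out each replicate.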

Additional observations from a re-analysis of the deposited data

How the results depend on the processing

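The number of genes with a TSS peak in at least 2 libraries was 5 under every alternative run, and the regions shared by all libraries numbered 13 in place of 14 with a reciprocal overlap of 50% and 13 to 21 when a replicate was left out. The number of genes in a super-enhancer fell from 1 to 0 with a −log10 q of at least 5, with stitching within 20 kb and with peaks near a TSS left out, and was 0 to 1 when a replicate was left out. The number with an intragenic peak fell from 2 to 1 with a −log10 q of at least 5, and was 1 to 2 when a replicate was left out, since the Pknox1 peak was in replicates 1 and 3. Under that q the mean covered length at Meis1 was 1920 bp in place of 4160 bp, with 0.667 intragenic peaks in place of 2.33. With protein-coding starts only or the outermost 5′ end only, Meis1 had 5.67 intragenic peaks, as interior TSS peaks were then intragenic. The log2 difference between Pbx3 and Meis1 turned from 0.07 to -0.04 with −log10 p in place of fold enrichment, and ran from -0.02 to 0.17 when a replicate was left out. The same ranges were 1.48 to 1.66 for Pknox1 over Pbx3, 0.04 to 0.08 for Meis1 over Pbx2, -0.08 to 0.17 for Pbx2 over Pbx4 and 0.17 to 0.65 for the Meis1 TSS over intragenic peak. The TSS definitions were not varied for these differences. With protein-coding starts only or the outermost 5′ end only, the mean TSS fold enrichment was 5.2 at Meis1 and 5.42 at Pbx2. The Meis1 peak over exon 1 was then lower than the intron 2 peaks counted as intragenic. Where no construction is named, the cause was not tested. No paired analysis was possible because no second group shares the replicate numbers here. The tests within libraries compare genes or peaks, not groups. With 3 libraries no test could pass 0.05, and acetylation below 8 or 9 fragments at a summit is not listed.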
